A study of Drosophila melanogaster with 21 samples.

Results

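Among transcripts more abundant in CoVa RNAi cells at the end of the time course, a set of 170 probesets out of 18769 had a mean difference near 0 at 72 hr and a large one at 168 hr, and the data between those times are described here. S2 cells, a Drosophila line of embryonic origin with blood cell character, were transfected by calcium phosphate with interfering RNA against CoVa, the nuclear gene of a cytochrome c oxidase subunit, or, in every control culture, against GFP, which flies lack. Of the 3 time courses, experiment 1 had RNA from 48 and 168 hr, whereas experiments 2 and 3 had RNA from 72, 96, 120 and 168 hr, with 1 GFP and 1 CoVa array each time, or 10 matched pairs on Affymetrix Drosophila Genome 2 arrays. A single array of untransfected 48 hr cells was kept out of the tests. A single line in culture, transiently transfected, is the whole model, and the arrays of one experiment belong to the same time course.

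A probeset, the group of array features that reads 1 transcript or a few, was chosen by the log2 difference between CoVa and GFP signal, after 32 was added to each signal intensity. The mean of the 3 experiments at 168 hr had to be 1 or more with each at 0.7 or more, the mean of experiments 2 and 3 at 72 hr had to lie between -0.4 and 0.4, and the signal had to reach 100 on 3 of the 20 arrays. Of 9858 probesets with that signal, 273 (2.77%) met the 168 hr thresholds and 184 of these also the 72 hr window, of which 14 belonging to cytochrome P450, glutathione transferase and UDP-glycosyltransferase genes were left out. The array annotation gave 143 of the remaining 170 probesets 1 gene each, for 139 different genes, 8 several genes and 19 none. The 168 and 72 hr values chose the set and are given as description, without a test. The 96 and 120 hr arrays served the choice only through the level filter and carry the tests, although they come from the same 2 time courses. The spread used by the tests was estimated over all 20 arrays, including those of 72 and 168 hr. It is therefore not independent of the choice. Counts at 96 and at 120 hr from only the arrays of that time are given at the end. At the edges, the members with the lowest 168 hr mean were CG14907 with Mettl4 (1.004), a probeset without a gene name (1.004), a probeset without a gene name (1.009), and the nearest probesets below were CG5674 (0.993), CG31678 (0.990), CG3829 (0.988). The lowest single 168 hr pairs inside were CG1971 (0.717), FoxP (0.719), CG16743 (0.729) and the highest outside CG7607 (0.689), scyl (0.664), Ten-a (0.661). At 72 hr the largest sizes inside were CG31274 with MESK4 (0.396), a probeset without a gene name (0.394), CG14695 (0.391) and the smallest outside a probeset without a gene name (0.4003), CG7632 (0.404), Atg1 (0.404). Of the members 15 reached 100 on exactly 3 arrays, among them CG10019, ng3 and spri, and 17 other probesets, among them Spn42De, met the remaining conditions with fewer such arrays.

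Mitochondria signal their state to the nucleus, and the change in nuclear transcription that follows loss of respiration is called the retrograde response. Mitochondria also import nearly all their proteins, house the first steps of iron-sulfur cluster assembly and the first and last steps of heme synthesis, and exchange metabolites with the cytosol through a family of carriers in their inner membrane. Complex IV itself carries heme groups, and several other respiratory complexes carry iron-sulfur clusters or heme.

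The CoVa transcript, which checks the labels, was lower under CoVa RNAi in all pairs but that of 48 hr. At 168 hr its decrease was 72.9%, 91.0% and 45.6% in experiments 1, 2 and 3. Over 96 and 120 hr the log2 difference was -1.01 (SE 0.38, adjusted p = 0.169 from limma), so at those times the loss did not pass the threshold of 0.05. Among haemocyte markers 7 of 10 plasmatocyte genes had a mean signal of 100 or more, including eater, crq and Pxn, while Hml, NimC1 and Sr-CI did not. The summed plasmatocyte signal ran from 3175 to 7965 on GFP arrays and from 2923 to 7216 on CoVa arrays, and at 168 hr from 5766 to 7965 and from 5000.1 to 5986. Of the 5 lamellocyte markers 4 reached 100 with atilla below it, and of 4 crystal cell markers only PPO2. Among fat body markers Lsp2 and Yp2, among neuron markers elav and brp, and among muscle markers Act88F and Mlc2 reached it. The 5′ to 3′ log2 ratio of the eIF-4a control probesets, a sign of RNA integrity, was -1.41 on average on GFP arrays and -1.17 on CoVa arrays and was higher on the CoVa array in 10 of 10 pairs, by 0.046 to 0.395. The same ratio of the actin and GAPDH controls was higher on the CoVa array in 4 and 6 of 10 pairs. The part of RNA integrity in the results was not tested.

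Much of the set already differed from GFP levels at 96 and 120 hr. At 96 hr 44 of the 170 members rose and none fell at an adjusted p under 0.05 (limma over 9858 probesets, of which 1.39% rose and 0.122% fell). At 120 hr 73 rose and none fell, against 2.32% and 0.73% of all probesets tested, and for both times together 96 rose and none fell, against 5.48% and 1.61%. With the matched pairs as a block these counts were 93, 134 and 144, and with the experiment as a block 82, 120 and 134. Blocks also raised the calls over all 9858 probesets. For both times together 1547 rose and 864 fell with the pairs and 1222 and 583 with the experiment, against 540 and 159 without a block. All later counts with a block are to be read against these. Where the matched-pair block changes the call of a gene named here, its blocked adjusted p is given beside the other, and a count with the block is given where it moves by over 1.5 times or adds genes that fell. All 4 CoVa arrays of 96 and 120 hr lay above all 4 GFP arrays for 100 members, against 9.89% of probesets tested. The median difference of the members over both times was 0.80, and that of all probesets tested was 0.04. Many weak members passed the level filter through their CoVa arrays, 33 of them with no GFP array at 100. Of the 96 that passed, 16 had all 4 GFP arrays of 96 and 120 hr below 100 and 6 had all 8 arrays below it (Alp4, Fie, salm, CG30339, spri and osk), so that the size of their fitted difference is not a measured fold. Of the 85 members at 100 or more on all 20 arrays, 72 rose, against 6.84% of all probesets at that level, and their median was 0.84. Without experiment 2, which leaves 2 residual degrees of freedom, no member passed at 96 hr, at 120 hr or over both, although the median difference was then 0.84. Without experiment 2 the median member difference over 96 and 120 hr was 0.84.

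The time course of the set was gradual. The median member difference was 0.13 in the 48 hr pair of experiment 1. The 72, 96, 120 and 168 hr medians were 0.07, 0.60, 0.89 and 1.39 in experiment 2 and 0.30, 0.77, 0.95 and 1.35 in experiment 3. Over all probesets tested it stayed between -0.01 and 0.07 in the same pairs. At 72 hr the upper quartile of the members was 0.20 in experiment 2 and 0.42 in experiment 3, where the highest value was 1.00. Part of the set was thus already higher at 72 hr in experiment 3, as the rule limited only the mean. The mean difference was larger at 120 than at 96 hr for 159 members, or 93.5%, against 44.2% of probesets tested. For no single member did the change between 96 and 120 hr pass (limma, 0 of 170 and 0% of all tested at an adjusted p under 0.05). At an unadjusted p under 0.05 and a positive change were 2 members, CG4594 and a probeset without a gene name, and 9 of the 9858 probesets tested. In both directions 0.548% of all tested had such a p. With 2 arrays per group and time and no term for the experiment, this contrast could pass little. It does not say whether single members changed. In both experiments 58 members had reached 50% of their 168 hr mean difference by 96 hr and 50 more by 120 hr. For the other 62 at least 1 of the 2 experiments was short of that at 96 and at 120 hr.

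**Figure D1:**
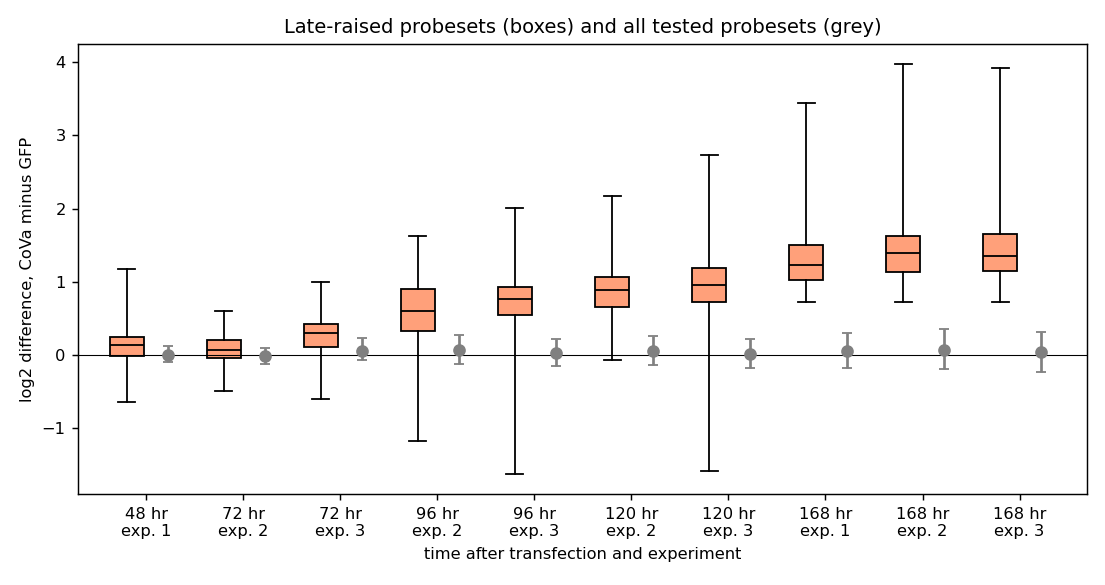
Log2 difference between CoVa and GFP signal (y axis) in the 10 matched pairs (x axis, by time and experiment). Boxes give the median and quartiles of the 170 late-raised probesets with whiskers to the lowest and highest, and grey points with bars the median and quartiles of the 9858 probesets tested. Member medians run from 0.07 in experiment 2 at 72 hr to 1.39 at 168 hr, where the rule fixed them, while the grey medians stay near 0.

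Carriers of the mitochondrial inner membrane and other mitochondrial proteins made up 12 members, of which 10 rose over 96 and 120 hr with a median difference of 0.80. This and the other role groups were formed after values were seen. Their counts are to be read against 56.5% higher among all members and 5.48% among all probesets tested. CG5646, a member of the mitochondrial carrier family, was below 100 on every GFP array. The CG5646 signal in GFP cells was 25.98 and 20.2 at 48 and 168 hr in experiment 1, 12.3, 9.60, 9.60 and 13.0 at 72, 96, 120 and 168 hr in experiment 2, and 41.5, 36.4, 34.0 and 34.5 at those times in experiment 3. Under CoVa RNAi CG5646 stood at 21.2 and 492 at 48 and 168 hr in experiment 1, 10.3, 26.8, 97.5 and 673 at 72, 96, 120 and 168 hr in experiment 2, and 83.5, 217, 325 and 972 at those times in experiment 3. At 168 hr all 3 CoVa arrays were far above the GFP arrays, on average at least 6.85-fold higher, taken against a signal of 100 where a GFP array lay below it, but in experiment 2 the CoVa signal was still under 100 at 96 and 120 hr. Over 96 and 120 hr the difference was 1.61 (SE 0.49, adjusted p = 0.0774, blocked adjusted p = 0.0033) and did not pass, although all 4 pairs were positive. Since the GFP signal was below 100, that difference is not a measured fold.

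MME1, which exports magnesium from mitochondria in flies, was weak in GFP cells. The MME1 signal in GFP cells was 169.6 and 84.3 at 48 and 168 hr in experiment 1, 151, 129.9, 117 and 126 at 72, 96, 120 and 168 hr in experiment 2, and 139.7, 91.1, 91.0 and 92.8 at those times in experiment 3. Under CoVa RNAi MME1 stood at 189 and 548 at 48 and 168 hr in experiment 1, 184, 409.8, 386 and 752 at 72, 96, 120 and 168 hr in experiment 2, and 196, 444, 511 and 732 at those times in experiment 3. Both later experiments behaved alike, and the groups did not overlap at 96, 120 or 168 hr. It rose by 1.76 (SE 0.14, adjusted p = 2.91e-05) over 96 and 120 hr, and at 168 hr the signal was at least 6.20-fold higher. Tpc1, the carrier of the cofactor thiamine pyrophosphate, was measured at a higher signal, 676, 622 and 678 in GFP and 2273, 2854 and 3124 in CoVa RNAi cells at 168 hr, and rose by 1.34 (SE 0.15, adjusted p = 2.10e-04) over 96 and 120 hr. CG5805, another carrier, rose by 0.81 (SE 0.09, adjusted p = 2.04e-04), and a probeset shared by the carriers Shawn and Tyler by 0.78 (SE 0.12, adjusted p = 0.00165).

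The matrix protease Lon rose by 0.68 (SE 0.18, adjusted p = 0.0469) over 96 and 120 hr and Spg7, a subunit of an ATP-driven protease of the inner membrane, by 1.10 (SE 0.10, adjusted p = 6.65e-05). CG7394, a fly homolog of the import motor subunit Tim14, rose by 0.80 (SE 0.13, adjusted p = 0.00283), the kinase-like protein Adck1 by 0.96 (SE 0.13, adjusted p = 0.00105), the complex III assembly factor Ttc19 by 0.79 (SE 0.12, adjusted p = 0.00141) and the calcium uptake regulator MICU3 by 0.64 (SE 0.12, adjusted p = 0.00681). Gabat, the enzyme that breaks down GABA, was at 0.31 (SE 0.33, adjusted p = 0.809, blocked adjusted p = 0.0354) and did not pass. Among the wider families, which were listed after member values were seen, 4 of 26 tested carrier genes rose (10 higher and 2 lower with the block) with a median of 0.15, and the fourth was CG18324, 0.37 (SE 0.10, adjusted p = 0.0466). The adenine nucleotide carrier sesB, -0.17 (SE 0.09, adjusted p = 0.348, blocked adjusted p = 0.0404), and the phosphate carrier Mpcp2, 0.12 (SE 0.06, adjusted p = 0.329), did not pass. Of 15 mitochondrial proteases and chaperones 8 rose (13 higher with the block) with a median of 0.43, including Afg3l2, the partner of Spg7, 0.95 (SE 0.09, adjusted p = 8.25e-05), whose 72 hr mean of 0.42 lay just above the window. For the 10 called mitochondrial members the adjusted p without experiment 2 was 0.179 to 0.525.

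**Figure D2:**
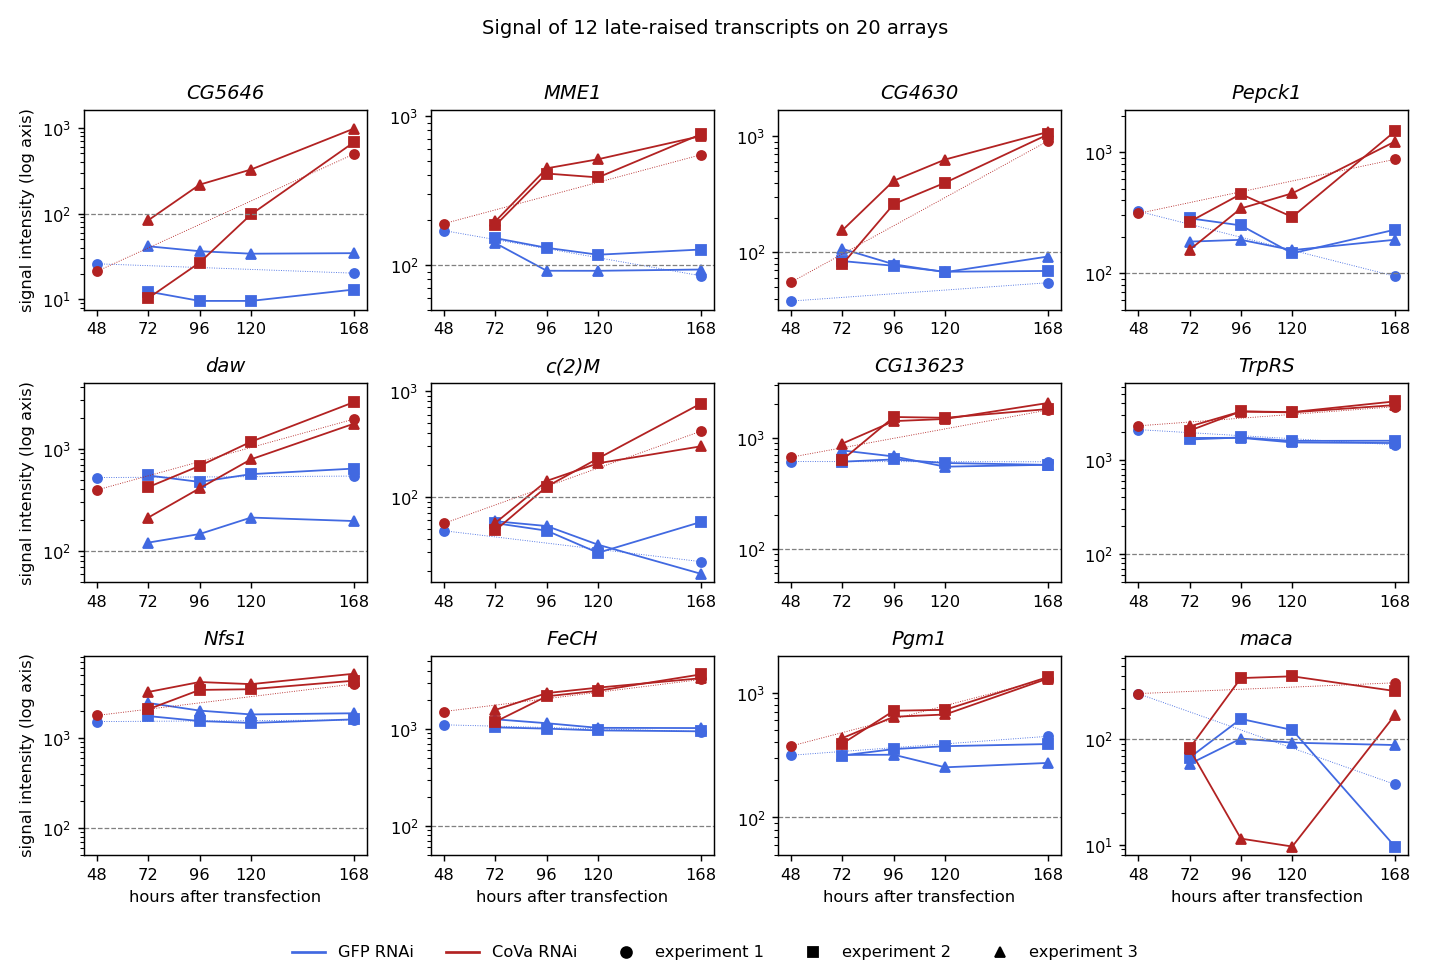
Signal intensity (log axis) against hours after transfection for 12 late-raised transcripts, with GFP arrays in blue, CoVa arrays in red, and experiments by marker. The dashed line marks a signal of 100. Red and blue lie close together at 48 and 72 hr for most genes and are apart at 168 hr for each of the 12, with 548, 752 and 732 against 84.3, 126 and 92.8 for MME1, while the 2 red series of maca part ways at 96 and 120 hr.

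Among the members, iron-sulfur cluster and heme biology gave 11 probesets of 9 genes, and all 11 rose over 96 and 120 hr (median 0.92), 10 of them at 100 or more on all 20 arrays. Of all members at that level 84.7% rose, and FeCH alone gave 3 of the 11 probesets. FeCH, ferrochelatase, inserts iron into protoporphyrin in the last step of heme synthesis and is on the array as 3 probesets. The FeCH signal in GFP cells was 1105 and 940.4 at 48 and 168 hr in experiment 1, 1039, 1009, 967 and 947 at 72, 96, 120 and 168 hr in experiment 2, and 1259.8, 1148, 1028 and 1023 at those times in experiment 3. Under CoVa RNAi FeCH stood at 1515 and 3246 at 48 and 168 hr in experiment 1, 1188, 2176, 2481 and 3661 at 72, 96, 120 and 168 hr in experiment 2, and 1574, 2349, 2674 and 3342 at those times in experiment 3. These values are of its strongest probeset, and the groups were apart from 96 hr on in both experiments. Its difference over 96 and 120 hr was 1.20 (SE 0.10, adjusted p = 3.33e-05). The second FeCH probeset gave 1.23, and the third, weak one 0.91, and both passed. Alas, which makes the first precursor of heme, rose by 0.68 (SE 0.16, adjusted p = 0.0234). Its GFP signal itself moved between 659 and 1337 over the 10 arrays. Tspo, an outer mitochondrial membrane protein that binds porphyrins and cholesterol, had the highest mean signal of the set and rose by 0.82 (SE 0.09, adjusted p = 2.11e-04).

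Nfs1 is the desulfurase that supplies sulfur for new clusters. The Nfs1 signal in GFP cells was 1529.8 and 1593 at 48 and 168 hr in experiment 1, 1762, 1552, 1478 and 1619 at 72, 96, 120 and 168 hr in experiment 2, and 2467, 2028, 1838 and 1894 at those times in experiment 3. Under CoVa RNAi Nfs1 stood at 1789.9 and 4006 at 48 and 168 hr in experiment 1, 2101, 3446, 3508 and 4365 at 72, 96, 120 and 168 hr in experiment 2, and 3269, 4220.1, 3996 and 5216 at those times in experiment 3. GFP levels stayed between 1478 and 2467, and every CoVa value from 96 hr on lay above every GFP value. Nfs1 rose by 1.13 (SE 0.17, adjusted p = 0.00156) over 96 and 120 hr. CG13623, annotated as IscA2, belongs to the A-type proteins that help form the larger clusters. The CG13623 signal in GFP cells was 611 and 608 at 48 and 168 hr in experiment 1, 609.5, 638, 593 and 570.4 at 72, 96, 120 and 168 hr in experiment 2, and 769, 679, 549.6 and 572 at those times in experiment 3. Under CoVa RNAi CG13623 stood at 669 and 1779 at 48 and 168 hr in experiment 1, 634, 1539.5, 1515 and 1816 at 72, 96, 120 and 168 hr in experiment 2, and 888, 1414, 1478 and 2058 at those times in experiment 3. Experiments 2 and 3 were nearly alike in CoVa signal at 96 and 120 hr, and the difference was 1.23 (SE 0.11, adjusted p = 4.34e-05). MagR, annotated as IscA1 and of the same protein type, rose by 0.92 (SE 0.13, adjusted p = 0.00114). Fdx1, a ferredoxin, rose by 0.97 (SE 0.25, adjusted p = 0.0355), galla-1, a protein of the cytosolic assembly family, by 0.71 (SE 0.09, adjusted p = 3.80e-04), and mal, which adds sulfur to the molybdenum cofactor of oxidases, by 0.90 (SE 0.12, adjusted p = 8.94e-04).

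Over the pathway as a whole, listed after member values were seen, 11 of 21 tested genes of iron-sulfur assembly rose and none fell (14 higher and 1 lower with the block, median 0.54). Besides the 5 members these were Hsc20, the co-chaperone of cluster transfer, 0.84 (SE 0.12, adjusted p = 0.00123), the scaffold IscU, 0.62 (SE 0.16, adjusted p = 0.0403), bcn92, the partner of Nfs1, 0.55 (SE 0.12, adjusted p = 0.0184), and the cytosolic factors Nubp1, 0.72 (SE 0.19, adjusted p = 0.0418), Nubp2, 0.60 (SE 0.12, adjusted p = 0.00873), and CIAPIN1, 0.54 (SE 0.08, adjusted p = 0.00197). Frataxin, fh, was at 0.10 (SE 0.11, adjusted p = 0.814), Grx5 at 0.16 (SE 0.11, adjusted p = 0.541), and the cytosolic targeting proteins Ciao1 and Mms19 at 0.03 and 0.05. Hsc20 missed the set only by its 168 hr mean of 0.98 and IscU by 0.94. In heme synthesis 4 of 7 genes rose (median 0.52), the others being Pbgs, 0.52 (SE 0.10, adjusted p = 0.00692), and Urod, 0.55 (SE 0.11, adjusted p = 0.00699), while Coprox, 0.22 (SE 0.09, adjusted p = 0.208, blocked adjusted p = 0.0389), Ppox, 0.09 (SE 0.08, adjusted p = 0.69), and Uros1, -0.14 (SE 0.09, adjusted p = 0.521), did not pass. The adjusted p of these 11 members without experiment 2 was 0.227 to 0.457.

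**Figure D3:**
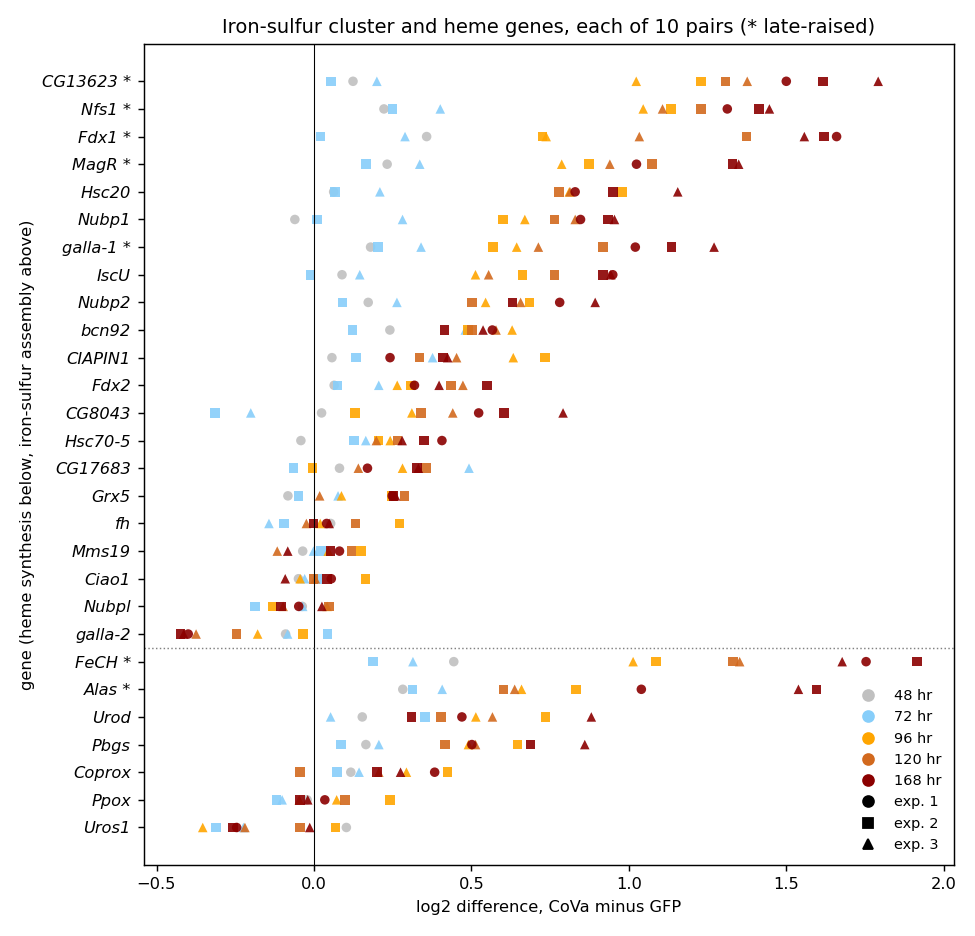
Log2 difference between CoVa and GFP signal (x axis) in each of the 10 pairs for the 21 tested genes of iron-sulfur cluster assembly (above the dotted line) and 7 of heme synthesis (below), with time by colour, experiment by marker and late-raised genes starred. Late-raised genes lie below 0.5 at 48 and 72 hr and to the right at later times, as CG13623 with 1.23 and 1.02 at 96 hr in experiments 2 and 3, whereas fh, Mms19 and Ciao1 stay within 0.3 of 0 in all 10 pairs.

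Members that charge tRNAs, start translation or move amino acids gave a like count, with all 11 probesets of 10 genes higher over 96 and 120 hr (median 0.88) and all 11 at 100 or more on every array. The share higher among all members at that level was 84.7%. TrpRS, the tryptophanyl-tRNA synthetase of the cytosol, has 2 probesets. The TrpRS signal in GFP cells was 2109 and 1454 at 48 and 168 hr in experiment 1, 1656, 1739, 1599 and 1605 at 72, 96, 120 and 168 hr in experiment 2, and 1719, 1724, 1539.7 and 1517 at those times in experiment 3. Under CoVa RNAi TrpRS stood at 2312 and 3695 at 48 and 168 hr in experiment 1, 2055, 3297, 3239 and 4213 at 72, 96, 120 and 168 hr in experiment 2, and 2279.6, 3285, 3218 and 3848 at those times in experiment 3. CoVa values of the stronger probeset shown here changed by little between 96 and 120 hr. The difference was 0.97 (SE 0.07, adjusted p = 1.10e-05) and that of the other probeset 1.06. GlyRS rose by 0.79 (SE 0.07, adjusted p = 5.12e-05) and ValRS by 0.84 (SE 0.10, adjusted p = 2.30e-04). Of 18 tested cytosolic tRNA synthetases, listed after member values were seen, 11 rose (median 0.39), LeuRS by 0.68 (SE 0.08, adjusted p = 2.68e-04), whereas both PheRS subunits, 0.03 and 0.01, and ArgRS, -0.18 (SE 0.12, adjusted p = 0.543), did not pass.

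eIF2Bgamma, a subunit of the factor that recharges eIF2 with GTP, rose by 0.72 (SE 0.10, adjusted p = 7.42e-04), and eIF2D, which can place initiator tRNA on the ribosome by another route, by 0.72 (SE 0.10, adjusted p = 9.37e-04). Irbp18, a bZIP protein that pairs with the ATF4 homolog crc, rose by 0.97 (SE 0.11, adjusted p = 2.22e-04) from 797 ± 102 to 1595 ± 208 (SD, n = 4 arrays each). Ire1, the endoplasmic reticulum sensor of unfolded proteins, rose by 0.92 (SE 0.16, adjusted p = 0.00381). JhI-21, a transporter of large neutral amino acids, rose by 0.88 (SE 0.14, adjusted p = 0.00201), and CG5535, a cationic amino acid transporter, by 0.82 (SE 0.10, adjusted p = 3.03e-04). A probeset shared by Tcs1, which modifies tRNA, and Polr3K, an RNA polymerase III subunit, gave 1.10 (SE 0.25, adjusted p = 0.0188). In the list of ATF4 and serine synthesis genes 5 of 14 rose (6 higher and 1 lower with the block, median 0.23), among them crc, 0.40 (SE 0.10, adjusted p = 0.0375), the kinases Gcn2, 0.32 (SE 0.08, adjusted p = 0.0322), and PEK, 0.52 (SE 0.12, adjusted p = 0.0195), and PPP1R15, 0.65 (SE 0.10, adjusted p = 0.00239). The serine enzymes did not pass, with 0.13 for aay, nor did AsnS, 0.15 (SE 0.19, adjusted p = 0.872). Among 16 genes of the unfolded protein response 2 rose (median 0.07), and among 15 amino acid transporters 3 (4 higher and 2 lower with the block, median -0.02). Without experiment 2 the adjusted p of the 11 members was 0.244 to 0.463.

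Of 6 members of sugar metabolism 3 rose over 96 and 120 hr, against 56.5% of all members, and with the matched pairs as a block all 6. Pepck1, phosphoenolpyruvate carboxykinase, makes phosphoenolpyruvate from oxaloacetate at the start of gluconeogenesis. The Pepck1 signal in GFP cells was 325 and 94.3 at 48 and 168 hr in experiment 1, 284, 248, 146 and 229 at 72, 96, 120 and 168 hr in experiment 2, and 182, 189, 155 and 189 at those times in experiment 3. Under CoVa RNAi Pepck1 stood at 312 and 875 at 48 and 168 hr in experiment 1, 266, 451, 292 and 1492 at 72, 96, 120 and 168 hr in experiment 2, and 156, 343, 458 and 1228 at those times in experiment 3. The 168 hr difference of 2.63 ± 0.18 (SD, n = 3 experiments) was above that of each earlier pair. Between 96 and 120 hr the CoVa signal went down in experiment 2 and up in experiment 3. Over those times it was 0.95 (SE 0.26, adjusted p = 0.0516, blocked adjusted p = 5.44e-04), short of the threshold, although the 4 CoVa arrays lay above the 4 GFP arrays. Pgm1, which joins glycogen to glycolysis, was steadier. The Pgm1 signal in GFP cells was 315 and 447 at 48 and 168 hr in experiment 1, 314, 353, 373 and 387 at 72, 96, 120 and 168 hr in experiment 2, and 317, 318, 252 and 274 at those times in experiment 3. Under CoVa RNAi Pgm1 stood at 373 and 1294 at 48 and 168 hr in experiment 1, 391, 716, 729 and 1334 at 72, 96, 120 and 168 hr in experiment 2, and 433, 641, 668 and 1298 at those times in experiment 3. The CoVa values of both experiments were near each other at each of the later times. Pgm1 rose by 1.03 (SE 0.14, adjusted p = 8.30e-04) over 96 and 120 hr, and at 168 hr the difference was 1.76 ± 0.33 (SD, n = 3 experiments).

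Pgi, the isomerase that follows hexokinase, rose by 0.72 (SE 0.09, adjusted p = 3.79e-04) and Tret1-2, a trehalose transporter, by 0.91 (SE 0.21, adjusted p = 0.023) from a weak GFP signal of 77.8 ± 24.0 (SD, n = 4 arrays from 96 and 120 hr of experiments 2 and 3). Gbs-76A, which brings protein phosphatase to glycogen, was at 0.96 (SE 0.33, adjusted p = 0.115, blocked adjusted p = 0.00298), and sug, a zinc finger factor induced by dietary sugar in flies, at 0.90 (SE 0.53, adjusted p = 0.461, blocked adjusted p = 0.0219). For sug the GFP signal was 129 and 86.7 in experiment 2 and 17.8 and 14.8 in experiment 3 at 96 and 120 hr, against 175 and 144 and 71.4 and 109.8 under CoVa RNAi, and the groups overlapped. In the list of glycogen, trehalose and sugar transport genes 6 of 10 rose (median 0.76), among them the glycogen phosphorylase Glyp, 1.20 (SE 0.12, adjusted p = 1.19e-04), and in that of glycolysis and lactate 5 of 9 rose and 1 fell (8 higher and 1 lower with the block, median 0.49). Neither lactate dehydrogenase nor pyruvate kinase was among those 9 tested genes. The paper shows both genes on these arrays and reports lactate dehydrogenase, as Impl3, among its most strongly raised genes. Their absence from the list is therefore no sign that they were unmeasured or unchanged, and the count of the list does not cover the whole pathway. With experiment 2 left out the adjusted p of Pgm1, Pgi and Tret1-2 was 0.284 to 0.381.

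CG4630, a fly member of the organic cation transporter family, had the largest fitted difference of the set over 96 and 120 hr. The CG4630 signal in GFP cells was 38.1 and 54.8 at 48 and 168 hr in experiment 1, 84.3, 76.8, 68.2 and 69.3 at 72, 96, 120 and 168 hr in experiment 2, and 107, 79.0, 67.7 and 92.2 at those times in experiment 3. Under CoVa RNAi CG4630 stood at 55.4 and 913 at 48 and 168 hr in experiment 1, 79.3, 261, 399 and 1039 at 72, 96, 120 and 168 hr in experiment 2, and 155, 415, 632 and 1092 at those times in experiment 3. Its GFP signal lay under or near 100 throughout and its CoVa signal was well above it from 96 hr on. CG4630 rose by 2.07 (SE 0.20, adjusted p = 8.25e-05) over 96 and 120 hr, at least 4.07-fold against 100, and at 168 hr the signal was at least 10.1-fold higher. CG9663, an ABC transporter of the G subfamily, rose by 1.13 (SE 0.19, adjusted p = 0.00355) and Cftr, the fly homolog of the human chloride channel, by 0.57 (SE 0.15, adjusted p = 0.045). Among 25 ABC transporters 4 rose (8 higher and 4 lower with the block, median 0.04), the others being Mrp4, 1.02 (SE 0.11, adjusted p = 2.10e-04), and Sur, 0.71 (SE 0.16, adjusted p = 0.0203), and among 26 organic solute transporters 1 rose and 1 fell (5 higher and 4 lower with the block, median -0.06). CG10019, of the monocarboxylate transporter family, was at 0.78 (SE 0.25, adjusted p = 0.0971, blocked adjusted p = 0.0126) and VhaAC39-2, a proton pump subunit, at 0.56 (SE 0.35, adjusted p = 0.499, blocked adjusted p = 0.00341). With the matched pairs as a block all 5 of these transporters passed, and without experiment 2 the adjusted p of the 3 called ones was 0.179 to 0.548.

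Proteins that act on DNA and chromosomes gave 7 members, of which 5 rose, against 56.5% of all members. c(2)M is a kleisin-like protein of the axis of meiotic chromosomes. The c(2)M signal in GFP cells was 47.7 and 24.4 at 48 and 168 hr in experiment 1, 56.3, 47.8, 29.5 and 57.7 at 72, 96, 120 and 168 hr in experiment 2, and 58.7, 52.9, 35.2 and 18.7 at those times in experiment 3. Under CoVa RNAi c(2)M stood at 56.1 and 417 at 48 and 168 hr in experiment 1, 48.1, 125, 231 and 762 at 72, 96, 120 and 168 hr in experiment 2, and 56.6, 141, 208 and 300.2 at those times in experiment 3. Every GFP array was well under 100 while the CoVa series climbed at each step. c(2)M rose by 1.48 (SE 0.24, adjusted p = 0.00229) over 96 and 120 hr, at least 1.71-fold against 100. It met the level filter through its CoVa arrays alone, and with GFP signals below 100 the difference of 1.48 is not a measured fold. Ku80, which binds broken DNA ends, rose by 0.86 (SE 0.10, adjusted p = 2.92e-04), PolI, a translesion polymerase, by 0.90 (SE 0.15, adjusted p = 0.00296), and Ude, an insect nuclease for uracil-containing DNA, by 0.88 (SE 0.18, adjusted p = 0.0099). The Polycomb gene escl was at 0.70 (SE 0.34, adjusted p = 0.302, blocked adjusted p = 6.01e-04), and a probeset it shares with the chimeric gene Qtzl rose by 0.84 (SE 0.10, adjusted p = 3.01e-04). The probeset of CG14907 and Mettl4, a DNA methyltransferase homolog, was at 0.48 (SE 0.14, adjusted p = 0.0579, blocked adjusted p = 0.0077). Of 23 DNA repair genes, listed after member values were seen, 8 rose (12 higher and 1 lower with the block, median 0.35), Irbp, the partner of Ku80, by 0.77 (SE 0.14, adjusted p = 0.0065) and PolZ1 by 0.89 (SE 0.10, adjusted p = 2.77e-04). Among chaperones wus, a DnaJ-domain protein, rose by 1.18 (SE 0.08, adjusted p = 1.29e-05) and CG7130, another, by 1.36 (SE 0.15, adjusted p = 2.10e-04). jdp, also of that family, was at 0.51 (SE 0.17, adjusted p = 0.102, blocked adjusted p = 0.0366), and its stronger probeset, no member for a 72 hr mean of -0.51, at 0.48 (SE 0.38, adjusted p = 0.652). Of 20 tested DnaJ genes, listed after member values were seen, 5 rose (7 higher and 1 lower with the block, median 0.09). A probeset of Hsp22, the mitochondrial small heat shock protein, shared with CG4456 was near background on every GFP array after 48 hr and reached 93.6, 177 and 271 in CoVa RNAi cells at 168 hr. Over 96 and 120 hr it was at 0.63 (SE 0.32, adjusted p = 0.35). In the heat shock list 2 of 8 genes rose (median 0.19). The adjusted p of the called members without experiment 2 was 0.259 to 0.388 for chromosomes and 0.212 to 0.284 for chaperones.

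Secreted signals, receptors and regulators were more divided, with 4 of 12 higher over 96 and 120 hr, or 7 with the matched pairs as a block. daw is an Activin-like ligand of the TGF-β family that controls sugar and mitochondrial metabolism in fly larvae. The daw signal in GFP cells was 522 and 541 at 48 and 168 hr in experiment 1, 548, 474, 564 and 639 at 72, 96, 120 and 168 hr in experiment 2, and 122, 147, 213 and 197 at those times in experiment 3. Under CoVa RNAi daw stood at 396 and 1935 at 48 and 168 hr in experiment 1, 422, 679, 1167 and 2829 at 72, 96, 120 and 168 hr in experiment 2, and 213, 411, 787 and 1745 at those times in experiment 3. The GFP level was higher in experiments 1 and 2 than in experiment 3, while the difference grew in both later experiments at each step. Over 96 and 120 hr it was 1.14 (SE 0.52, adjusted p = 0.27, blocked adjusted p = 0.015) and did not pass, with all 4 pairs positive, 0.49 and 1.30 at 96 hr and 1.01 and 1.74 at 120 hr in experiments 2 and 3. magu, a secreted modulator of BMP signals, was at 62.4, 54.4 and 64.2 in GFP and 224, 216 and 739 in CoVa RNAi cells at 168 hr, with experiment 3 far above the others, and at 0.48 (SE 0.30, adjusted p = 0.502) before. Of 14 tested genes of TGF-β and BMP signalling, listed after member values were seen, 1 rose (5 higher and 1 lower with the block), the co-Smad Med, 0.36 (SE 0.09, adjusted p = 0.028), and the receptors babo and put were at 0.19 and -0.05.

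POSH, a scaffold of JNK signalling, rose by 0.73 (SE 0.15, adjusted p = 0.00971). The fit also passed salm, a zinc finger factor of wing and muscle patterning, spri, a Ras-interacting protein, and osk, the organizer of the germ plasm, with adjusted p = 0.00123, 0.00652 and 0.0122. Their signals were under 100 on all GFP arrays and on all CoVa arrays before 168 hr, so no fold is given, and they met the level filter only through the 168 hr CoVa arrays that chose them. raw, a regulator of JNK activity, was at 0.63 (SE 0.21, adjusted p = 0.0971, blocked adjusted p = 0.00565), Ptth, the peptide that triggers ecdysone production, at 0.64 (SE 0.20, adjusted p = 0.0772, blocked adjusted p = 0.00597), Dh44-R1, a diuretic hormone receptor, at 0.61 (SE 0.50, adjusted p = 0.676), the lipophorin receptor LpR2 at 0.97 (SE 0.57, adjusted p = 0.447) and the forkhead factor FoxP at 0.30 (SE 0.21, adjusted p = 0.588). Ptth was higher under CoVa RNAi in all 4 pairs, whereas LpR2 was 0.20 and 2.68 at 120 hr in experiments 2 and 3. PGRP-LE, a sensor of bacterial peptidoglycan, was at 0.17 (SE 0.14, adjusted p = 0.697), and none of the 13 tested antimicrobial, Imd or Toll genes passed (0 higher and 1 lower with the block, median -0.08). Nor did any of 17 JNK and cell death genes (5 higher and 2 lower with the block, median 0.15). Without experiment 2 the adjusted p of salm, POSH, spri and osk was 0.379 to 0.525.

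Proteases, secreted and matrix proteins gave 15 members, of which 6 passed as higher over 96 and 120 hr, or 11 with the matched pairs as a block. Ide, the insulin-degrading metalloprotease, rose by 0.80 (SE 0.08, adjusted p = 8.71e-05), Nepl3, a neprilysin-like protease, by 0.61 (SE 0.09, adjusted p = 0.00117), yellow-f, an enzyme of melanin formation, by 0.90 (SE 0.10, adjusted p = 2.06e-04), ChLD3, a chitin-binding deacetylase-like protein, by 0.60 (SE 0.10, adjusted p = 0.0033), and CREG, a secreted glycoprotein, by 1.07 (SE 0.18, adjusted p = 0.00344). Alp4, an alkaline phosphatase, passed too (adjusted p = 0.0427), with all 8 arrays of 96 and 120 hr below 100. It was at 9.60, 9.60 and 9.60 in GFP and 141, 169 and 234 in CoVa RNAi cells at 168 hr, at least 1.78-fold higher, where the GFP values are the lowest the arrays give. Not past the threshold were PPO3, the prophenoloxidase of lamellocytes, 0.73 (SE 0.22, adjusted p = 0.0783, blocked adjusted p = 5.41e-04), the serpin Spn77Ba, 0.64 (SE 0.76, adjusted p = 0.847, blocked adjusted p = 0.00927), the serine proteases Sp212, 0.75 (SE 0.31, adjusted p = 0.206, blocked adjusted p = 2.22e-04), CG30187, 0.69 (SE 0.45, adjusted p = 0.534, blocked adjusted p = 0.00146), and alphaTry, 0.47 (SE 0.62, adjusted p = 0.886, blocked adjusted p = 0.0104), and ng3, 0.42 (SE 0.29, adjusted p = 0.582). PPO3 is the only member among the plasmatocyte, crystal cell and lamellocyte markers. Of the 4 tested lamellocyte markers 1 rose (2 higher with the block), ItgaPS4 by 1.83 (SE 0.46, adjusted p = 0.0322), with msn at -0.15 and cher at -0.03. Of 7 plasmatocyte markers 2 fell and none rose, NimC4, -1.80 (SE 0.32, adjusted p = 0.00449), and Col4a1, -0.87 (SE 0.14, adjusted p = 0.00258), with crq at 0.14 and vkg at 0.18. The part of a shift in marker genes in these results was not tested. The lectin gene lectin-46Cb was 9.60, 9.60 and 133 in GFP and 306, 124 and 453 in CoVa RNAi cells at 168 hr, and over 96 and 120 hr it was at 0.89 (SE 1.09, adjusted p = 0.863). Its GFP signal was at the lowest value in experiment 2 and between 133 and 439.7 in experiment 3. The adjusted p of the 6 called members without experiment 2 was 0.259 to 0.493.

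The cytoskeletal members were Septin4, a GTPase of septin filaments, Whamy, an activator of actin branching, Cc2d2a, a protein of the base of cilia, and TTLL1A, a tubulin-modifying enzyme homolog. The Septin4 signal in GFP cells was 9.60 and 16.3 at 48 and 168 hr in experiment 1, 9.60, 9.60, 15.6 and 9.60 at 72, 96, 120 and 168 hr in experiment 2, and 9.60, 9.60, 9.60 and 21.3 at those times in experiment 3. Under CoVa RNAi Septin4 stood at 10.1 and 328 at 48 and 168 hr in experiment 1, 9.60, 23, 49.9 and 367 at 72, 96, 120 and 168 hr in experiment 2, and 22.6, 80.6, 122 and 654 at those times in experiment 3. The transcript was at or near the lowest value on all GFP arrays and came up under CoVa RNAi after 72 hr, sooner in experiment 3. The fit over 96 and 120 hr passed (adjusted p = 0.0243), but 3 of those 4 CoVa arrays were below 100, so no fold is given for these times, and at 168 hr the signal was at least 4.29-fold higher. Septin4 met the level filter through CoVa arrays alone, mainly those of 168 hr that chose it. Cc2d2a rose by 0.82 (SE 0.15, adjusted p = 0.00613), Whamy was at 0.60 (SE 0.27, adjusted p = 0.258, blocked adjusted p = 0.0038) and TTLL1A at 0.26 (SE 0.34, adjusted p = 0.891). Of lipid enzymes Hmgs, HMG-CoA synthase, rose by 0.82 (SE 0.15, adjusted p = 0.00577), the retinol dehydrogenase Rdh1 by 1.00 (SE 0.23, adjusted p = 0.023) and Alg12, a mannosyltransferase of glycan precursors on lipid, by 0.95 (SE 0.10, adjusted p = 1.51e-04). pdgy, an acyl-CoA synthetase, was at 0.59 (SE 0.27, adjusted p = 0.268) and CG10814, a homolog of a carnitine-forming oxygenase, at 0.53 (SE 0.34, adjusted p = 0.521). CHKov2, of a kinase-like family enlarged in insects, rose by 0.97 (SE 0.12, adjusted p = 4.97e-04), and CG10559, of the same family, was at 1.02 (SE 0.29, adjusted p = 0.0587, blocked adjusted p = 0.00614). Without experiment 2 the adjusted p was 0.244 to 0.354 for Septin4 and Cc2d2a, 0.344 to 0.404 for the lipid enzymes, and 0.23 for CHKov2.

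The remaining 76 probesets, 19 of them without a gene name, carry no role here. Of these 35 passed as higher over 96 and 120 hr, or 63 with the matched pairs as a block and 54 with the experiment as a block, with a median over the 76 of 0.74. NTPase, an enzyme that cleaves nucleoside triphosphates, had one of the highest signals and rose by 0.83 (SE 0.11, adjusted p = 9.92e-04). The others past the threshold with a name were CG33468, Fie, CG34228, CG17036, CG3348, asRNA:CR43964, CG4586, CG4594, CG7860, CG30339, asrij, CG42365, CG4570, CG6845, Zaf1, CG3008, CG9410, CG7352, CG10916, CG18596, CG6428, CG12379, CG17294, CG6495, CG6330, CR14798, CG9641, CG3803, CG12177 and CG3085. Those that passed in the blocked fit alone were CG5080, CG10063, Slob, CG7231, CG5381, CG17754, CG33494, CG3397, CG18088, CG7236, CG18190, CG33333, CG11760 with TMEM216 and CG32369, and those that passed with neither were CG31274 with MESK4, CG16888, CG15546, CG16743 and CG1971, of which CG17754 and the probesets of CG31274 with MESK4 appear as a pair each. Of the genes with the largest 168 hr differences CG12520 stood at 113, 165 and 324 and CG13116 at 413, 434 and 348 in CoVa RNAi cells, against 9.60, 11.3 and 9.60 and 35.6, 49.4 and 93.5 in GFP cells. Over 96 and 120 hr these were at 1.17 (SE 0.33, adjusted p = 0.0525, blocked adjusted p = 0.0227) and 0.59 (SE 0.19, adjusted p = 0.0915). CG9691 was strong and differed in level between experiments, with 978, 1012 and 352 in GFP and 4421, 4543 and 2002 in CoVa RNAi cells at 168 hr and 1.16 (SE 0.49, adjusted p = 0.221, blocked adjusted p = 2.52e-04) before, and CG14695 likewise with 1.40 (SE 0.68, adjusted p = 0.311, blocked adjusted p = 0.00104). CG14695 and Tpc1, MICU3 and Ire1, and CG12379 and MagR are pairs of adjacent protein-coding genes in the RefSeq annotation.

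**Figure D4:**
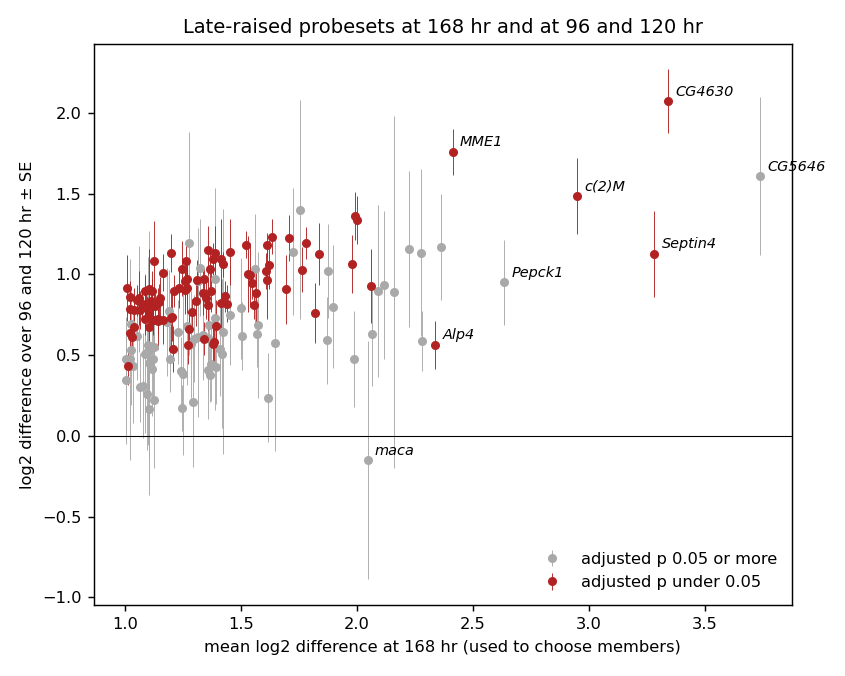
Log2 difference over 96 and 120 hr with its SE (y axis) against the mean log2 difference at 168 hr that chose the members (x axis) for the 170 probesets, in red those with an adjusted p under 0.05. All points but that of maca lie above 0 on the y axis, and the 96 red points run from 0.43 to 2.07 (CG4630), while CG5646, at the right edge, is grey. Its GFP signals were below 100, and with the matched-pair block its adjusted p was 0.0033.

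Not all members followed this course in both experiments. The difference was positive in all 4 pairs of 96 and 120 hr for 142 members, or 83.5%, against 25.4% of probesets tested. The other members, maca among them, had at least 1 pair that was not positive. maca was 1.14 and -1.62 at 96 hr and 1.47 and -1.59 at 120 hr in experiments 2 and 3. The maca signal in GFP cells was 272 and 37.4 at 48 and 168 hr in experiment 1, 67.1, 157, 123 and 9.60 at 72, 96, 120 and 168 hr in experiment 2, and 58.5, 102, 93.1 and 88.5 at those times in experiment 3. Under CoVa RNAi maca stood at 273 and 345 at 48 and 168 hr in experiment 1, 82.3, 383, 398 and 288 at 72, 96, 120 and 168 hr in experiment 2, and 81.0, 11.4, 9.60 and 171 at those times in experiment 3. In experiment 3 the CoVa signal fell to the background at 96 and 120 hr and was back above the GFP signal at 168 hr. Over both times it was at -0.15 (SE 0.74, adjusted p = 0.991), the lowest of the set, and on a scale with 64 added the mean was 0.023. Other named members with small differences were PGRP-LE, Sgs1, a salivary glue gene, 0.21 (SE 0.40, adjusted p = 0.954), Peritrophin-15a, a protein of the gut lining, 0.22 (SE 0.42, adjusted p = 0.953), TTLL1A, FoxP, Gabat and CG16888, 0.38 (SE 0.17, adjusted p = 0.264). The mean GFP signal of each of these over 96 and 120 hr lay below 150. Sgs1 was -1.17 and 0.25 at 96 hr and 0.60 and 1.16 at 120 hr in experiments 2 and 3, and Peritrophin-15a 0.29 and -0.59 and 0.90 and 0.29. Across the set 57.6% of members at 96 hr and 58.2% at 120 hr had the larger difference in experiment 3, against 48.9% and 44.2% of all probesets tested. The CoVa transcript was lowered by 30.7% and 36.8% at those times in experiment 3 and by 58.4% and 66.7% in experiment 2.

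The growth of the difference lay in the CoVa cultures. From 72 to 168 hr the median member changed by 1.25 on the log2 scale in CoVa RNAi cells and by -0.09 in GFP cells of experiment 2, and by 1.02 and -0.12 in experiment 3. The medians over all probesets tested were 0.09 and -0.0027 in experiment 2 and 0.09 and 0.06 in experiment 3. In experiment 1 the change from 48 to 168 hr was 0.96 and -0.09. GFP cells kept 118 of the 170 members within 0.5 in both experiments. A fall in GFP cells larger than the rise in CoVa RNAi cells was seen in both experiments only for TTLL1A and 1 probeset without a gene name, and in experiment 3 such a fall was seen for 13 members. Since the 72 and 168 hr arrays chose the set, these values describe it and test nothing. In bulk RNA more cells with a transcript and more transcript per cell cannot be told apart.

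**Figure D5:**
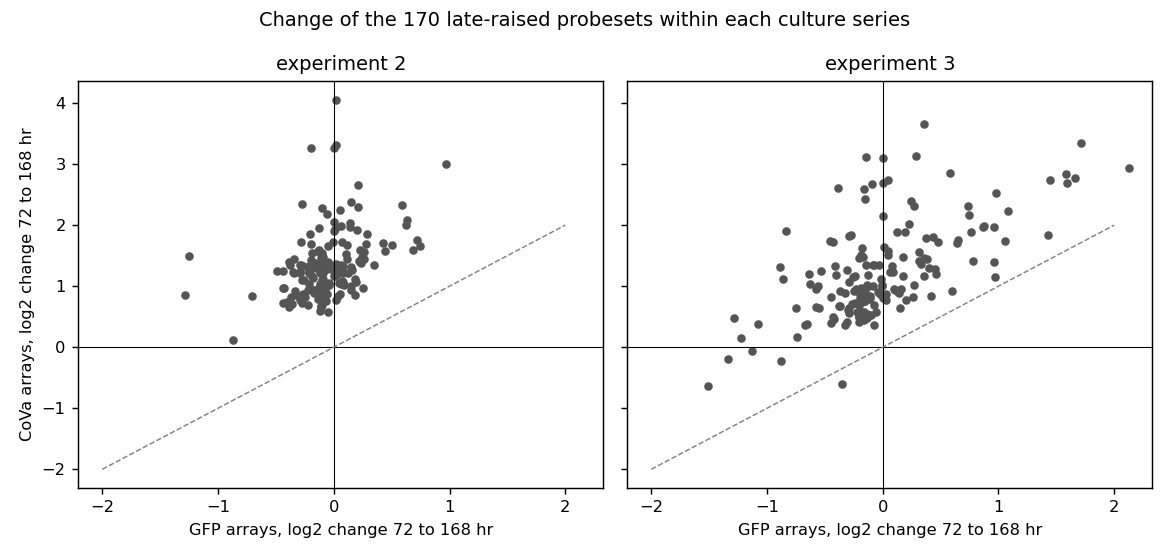
Change of signal from 72 to 168 hr on the log2 scale in CoVa cultures (y axis) against GFP cultures (x axis) for the 170 late-raised probesets in experiments 2 and 3. Points above the dashed line rose more, or fell less, in CoVa RNAi cells, and the medians are 1.25 against -0.09 in experiment 2 and 1.02 against -0.12 in experiment 3, where GFP values spread more widely.

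By the same 168 hr thresholds 88 other probesets had a 72 hr mean above 0.4. Over 96 and 120 hr their median difference was 1.08 with 61 called, and at 168 hr their pair medians were 1.45, 1.57 and 1.44, against 1.22, 1.39 and 1.35 for the late-raised members. No test was made between these sets, which the 72 hr values define. Several lists held no member, namely lipid storage and fatty acid oxidation with 2 of 17 genes higher (8 higher and 3 lower with the block), autophagy with 1 of 22 (5 higher with the block), lysosome with 2 of 16 (3 higher and 4 lower with the block), oxidative defence with 3 of 17 (8 higher and 1 lower with the block), JAK-STAT and Turandot with 0 of 3, and integrins and matrix with 2 of 18 higher and 5 lower (4 higher and 7 lower with the block), all at an adjusted p under 0.05 over 96 and 120 hr. Pepck1 was the single member among the 6 tested FOXO and starvation targets, none of which passed (3 higher and 1 lower with the block, median 0.27), and JhI-21 among 24 ecdysone and juvenile hormone genes, of which 2 rose (4 higher and 1 lower with the block).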

How the data were processed

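The deposited values are signal intensities. The authors used Affymetrix GeneChip Operating System software and scaled the arrays in dChip against the one of median brightness, and the submitters' processing notes name MAS5. Array medians were 67.5 to 94.4, and the lowest value, 9.60, recurs on each array. The 183 control probesets of 18952 were left out. The array annotation gave 13646 probesets 1 gene, 402 several and 4721 none.

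After adding 32 and taking log2, CoVa was compared with GFP in limma 3.58.1 (R 4.3.3) with 1 mean per condition and time over all 20 arrays, eBayes and Benjamini-Hochberg adjustment over 9858 probesets with 100 or more on 3 arrays, at a threshold of 0.05. Genes named by rule are the 12 members with the largest 168 hr mean, the 8 with the largest and 8 with the smallest difference over 96 and 120 hr, the 8 with the highest signal, those in the gene lists, any past the threshold for a change, and the 3 nearest either side of each threshold. Role groups and pathways were added after values were seen, and other members are named within them. The members and lists were chosen with earlier results of these data known. A list uses the strongest probeset of a gene. Deviations of same-numbered GFP and CoVa arrays from their group means correlated at 0.956 at 72 hr, 0.774 and 0.785 at 96 and 120 hr, and 0.582, 0.596 and 0.709 at 168 hr, so the experiments, which are separate time courses, pair the arrays. Arrays of 1 condition and time come from different experiments, so the spread in the main fit is that between experiments. The contrast over 96 and 120 hr treats 2 time points of the same course as independent arrays. Nothing says that time points of 1 course are separate cultures. The fit was tested on simulated data. Alternatives changed scaling, the added value, the filter, blocks, eBayes settings, the arrays used and the experiments. Python 3.11.15 with numpy 2.4.6 and pandas 2.3.3 was used. Promoter sequences were not analysed here. The number of arrays limits the precision.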

Additional observations from a re-analysis of the deposited data

Results flagged for a closer look

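maca was flagged because both experiment 2 pairs at 96 and 120 hr were positive, with a mean log2 difference of 1.30, and both of experiment 3 negative, with a mean of -1.61, a difference of -2.91. For PGRP-LE the experiment 2 pairs were negative (-0.20) and those of experiment 3 positive (0.54), a difference of 0.74. Neither difference was tested, since the time points of 1 experiment are not replicates of it, and the signals concerned were partly below 100, those of maca on the CoVa arrays of experiment 3 (11.4 and 9.60).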

How the results depend on the processing

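At 96 hr the count of members that rose, 44, became 14 after quantile normalization, 17 with a common median, 29 without a filter, 82 with the experiment as a replicate block, 93 with the matched pairs as a replicate block and 0 when the fit held only the arrays of that time. At 120 hr the count of 73 became 41, 47, 120, 134 and 0 under quantile normalization, a common median, the experiment block, the matched pair block and the arrays of that time alone. Calls over all probesets at these single times are not given for the alternatives, so a move may not be particular to the members. Those for both times together are given below. The count for both times together, 96, stayed between 66 and 144 under all settings but the omission of an experiment. Within role groups the matched pair block moved the count over both times from 3 to 6 for sugar metabolism, 4 to 7 for signals, 6 to 11 for secreted proteins and proteases, 3 to 5 for transporters, 1 to 2 for the CHK family and 35 to 63 for members without a role, and no other role group by over 1.5 times. Leaving out 1 experiment gave 0 to 33 members at 96 hr, 0 to 62 at 120 hr and 0 to 92 over both, the 0 over both being without experiment 2. The count for a change between 96 and 120 hr was 0 under each of the 14 alternatives. The median member difference ran from 0.70 with 64 added to 0.84, also among members at 100 or more on all 20 arrays, an alternative added after seeing the data. The number of members ran from 119 with a common median or without experiment 2 to 206 without experiment 1. With a common median all 119 were among the 170. The CoVa probeset did not pass under any alternative.

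Over all probesets tested, 540 rose and 159 fell over both times, against 331 and 156 after quantile normalization, 208 and 46 with a common median, 381 and 86 without a filter, 1222 and 583 with the experiment block, 1547 and 864 with the matched pair block, 212 and 56 with only the arrays of those times and 0 and 0 without experiment 2. Quantile normalization moved the share of higher among all called probesets from 77.3% to 68.0%, the experiment block to 67.7% and the matched pair block to 64.2%. For named members 596 of the single-gene results kept their direction and side of the threshold, 44 lost the call and 36 gained it. The sign turned for maca with 64 added (0.023). With 1 experiment left out the difference ran from -1.61 to 1.30 for maca, from -0.20 to 0.54 for PGRP-LE, from -0.29 to 0.70 for Sgs1, from -0.15 to 0.59 for Peritrophin-15a and from -0.11 to 0.94 for ng3, none of which passed where the sign turned. The cause was not tested. With 2 arrays per group at a time the differences at single times are imprecise, and 61 members had a GFP mean below 100 at 168 hr, so that their fold is only a bound.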

Other observations

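On the array of untransfected cells at 48 hr the members lay near their GFP level at the same time (median log2 difference -0.02), with 6 of 170 at 1 or more in size. Pepck1 was at 141 against 325 in GFP cells, CG7130 at 498 against 1051, CG3348 at 816 against 1808, CG13116 at 62.5 against 176 and lectin-46Cb at 9.60 against 81.7, while a probeset without a gene name was at 127 against 44.3. With 1 array there is no replicate. In the 48 hr pair of experiment 1, 71.2% of members had a higher signal in CoVa than in GFP cells, against 49.6% of probesets tested, when the CoVa transcript itself was not yet lower, and 11 members differed by 0.5 or more.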
